A study of Mus musculus with 2 samples.

Results

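Mitochondrial ribosomal proteins are named Mrpl or Mrps followed by a number, and the members described here are all genes of the count table whose symbol has that form, with at most 1 letter after the number. The rule found 78 of the 19294 genes listed, and it used no measured value. Every member had 100 or more counts in one library or both, so all 78 are among the 17235 genes that reached 10 counts in either library, called tested genes here. Of the 78, 26 encode proteins of the small subunit and 51 encode proteins of the large subunit. The remaining one, Mrps36, carries the name but is a subunit of the 2-oxoglutarate dehydrogenase complex.

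The mitochondrial ribosome translates the few proteins encoded by mitochondrial DNA, all of them subunits of the oxidative phosphorylation complexes. Its RNAs come from mitochondrial DNA, whereas all of its proteins are encoded in the nucleus, made in the cytosol and imported. Part of these proteins descend from bacterial ribosomal proteins, and others are found only in mitochondria. In the intestinal epithelium, dividing crypt cells give rise to absorptive enterocytes rich in mitochondria.

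The data are mRNA-seq counts from mouse intestinal organoids (mIOs), grown in Matrigel from jejunal crypts of Lgr5-EGFP-IRES-creERT2 mice in medium with EGF, Noggin and R-spondin. In this allele EGFP and a tamoxifen-inducible Cre are expressed from the Lgr5 locus, and both cultures carry it. One culture was labelled control and the other was treated with dextran sulfate sodium (DSS), a polysaccharide used to injure gut epithelium, and both were labelled day 4. The DSS concentration of the sequenced culture and the age and number of the donor mice are not given in the sources used here. The question was how DSS injury changes gene expression in the organoids.

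There was 1 library per condition, so no difference below has a replicate check, and no test was made. Summed over genes there were 65493032 counts for control mIOs and 59746968 for DSS-treated mIOs. Levels are CPM, the counts of a gene relative to the size of its library, scaled with TMM factors, a scaling in which the bulk of genes is set to be equal between libraries. Differences are log2 ratios of DSS over control, in which 0 is an equal level, with an exact Clopper-Pearson 95% interval that covers counting error only. Over all tested genes the median log2 ratio was -0.06, and the middle of the distribution ran from -0.79 at the first quartile to 0.73 at the third.

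The labels call the cells intestinal stem cells. The 5 epithelial markers summed to 4084 CPM in control mIOs and 7170 CPM in DSS-treated mIOs, with log2 ratios of 0.03 for Epcam, -0.03 for Cdh1, 0.84 for Krt8, 1.25 for Vil1 and 3.99 for Krt20. The 5 stem cell markers summed to 832 and 130 CPM, and all 5 had log2 ratios of -1 or less, beside 20.2% of the tested genes. Most of the sum in DSS-treated mIOs was Smoc2, at 104 CPM and a ratio of -1.25. The 6 markers of dividing cells summed to 1222 and 231 CPM, and the 5 enterocyte markers to 1394 and 18400 CPM. Stem cell markers were thus present in control mIOs, as the label says, and lower in DSS-treated mIOs, and enterocyte markers were counted in both. Of the markers of other cells, 3 of 5 mesenchymal genes were in the table, with a sum of 0.503 and 0.933 CPM, and 3 of 5 immune genes, with a sum of 8.86 and 12.8 CPM, while Ptprc and Cd3e were not listed. These marker levels moved between the same libraries as every ratio below, and their part in the results was not tested. In these bulk libraries, fewer cells of a type and less RNA per cell cannot be told apart.

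The members were lower in DSS-treated mIOs as a group, by a moderate amount. Together they held 206149 counts, or 0.315% of all counts, in control mIOs and 111251 counts, or 0.186%, in DSS-treated mIOs. On the TMM scale this was 2880 CPM and 2035 CPM, a log2 ratio of the sums of -0.50 (interval -0.51 to -0.49). The median member had a log2 ratio of -0.56, against -0.06 over the tested genes. Of the 78 members, 67 (85.9%) were below 0 and 11 were above, whereas 52.0% of the tested genes were below 0.

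Few members differed by much. A log2 ratio of -1 or less was found in 10 of the 78 members, a smaller share than the 20.2% of the tested genes at or below that line. No member had a log2 ratio of 1 or more, where 19.3% of the tested genes were. The other 68 members (87.2%) lay between the lines, as did 60.5% of the tested genes. The members were also close to each other. Their interquartile range was 0.47, from -0.73 to -0.26, compared with 1.51 for the tested genes, and they ran from -1.61 for Mrps28 to 0.56 for Mrpl14. The tested genes include many with fewer counts than any member, where counting error alone is larger, and the spread was not compared at like depth. Among genes with at least 100 counts in either library, 20.5% were at -1 or less and 15.1% at 1 or more.

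Counting error was small beside these differences. The members had 677 to 9121 counts in control mIOs and 308 to 4762 in DSS-treated mIOs, and the intervals reached a median of 0.0996 to either side of the ratio. The interval lay wholly below 0 for 62 members, against 42.7% of the tested genes, and wholly above 0 for 9, against 38.7%. The interval held 0 for the 7 others. Whether an interval holds 0 depends on depth, and many tested genes had fewer counts than any member. These shares were not compared at like depth.

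**Figure D1:**
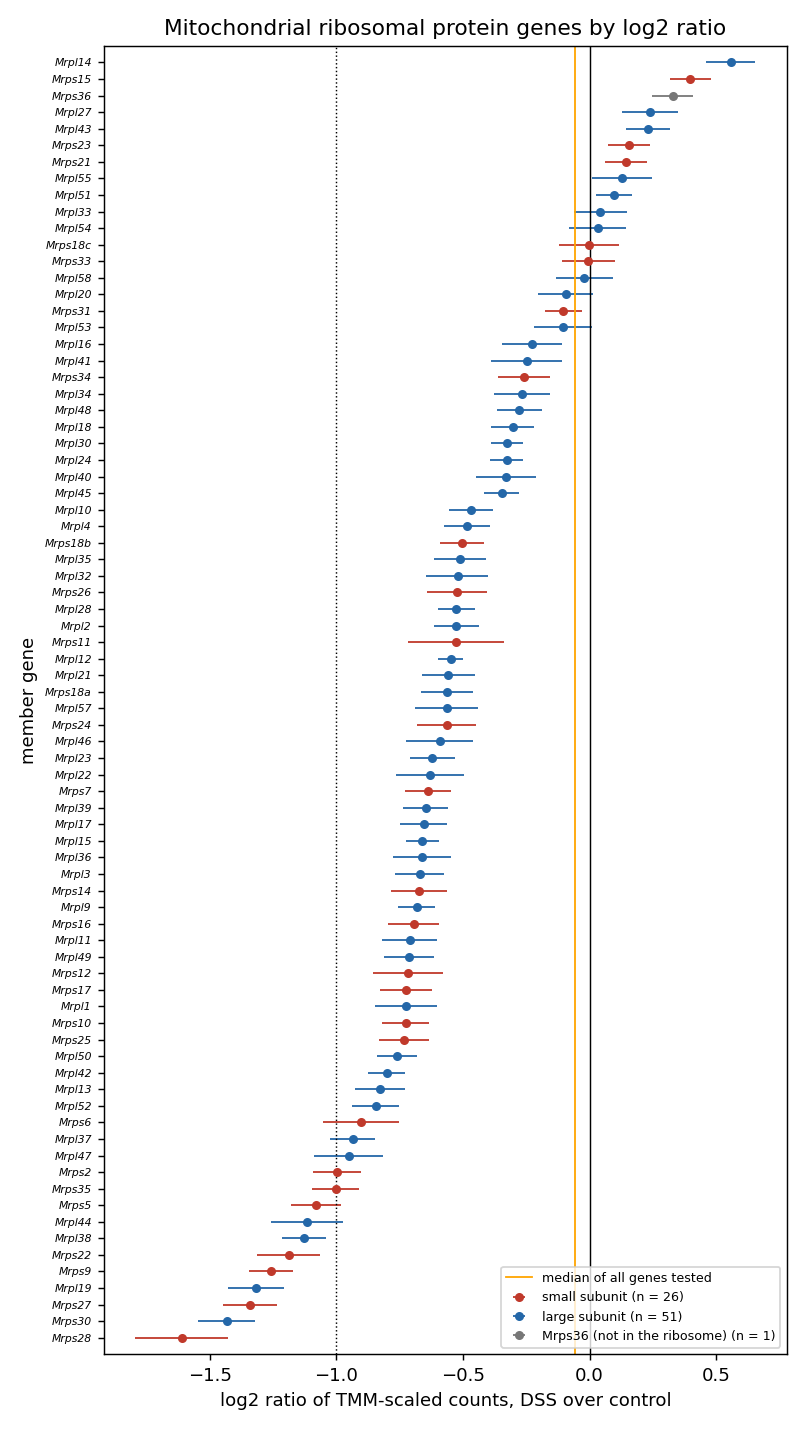
Log2 ratio of TMM-scaled counts, DSS over control, for each of the 78 members (1 library per condition); points are colored by subunit, bars are exact 95% intervals for counting error, the dotted line marks -1 and the orange line the median of all tested genes. The members run from Mrps28 at -1.61 to Mrpl14 at 0.56, with 10 at -1 or less and none at 1 or more.

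The scaling sets how many members lie on each side of 0. When libraries were scaled to their total counts, 75 members were below 0 and 3 above, and the median of the tested genes moved from -0.06 to -0.31, with 26.2% of them at -1 or less and 15.4% at 1 or more. On that scale the median member was at -0.82 and 18 members were at -1 or less. By construction, a change of scale leaves the distance between members and other genes as it was.

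The promoter regions of members at both ends of the order are shown because the nuclear genes of mitochondria are known for promoters with sites of NRF1, of ETS family factors such as GABP, and of YY1. The stretches come from RefSeq windows on GRCm38.p6 and end at or just before the annotated start, and bases within any annotated exon were left out. They are given 5' to 3' on the strand of the gene. Mrps27 (chr13:99344706-99344785, plus strand) and Mrps9 (chr1:42850983-42851232, plus strand) were among the 10 lowest. Mrpl43 (chr19:45006443-45006557, minus strand) and Mrps15 (chr4:126046678-126046924, plus strand) were among the 10 highest. Mrpl12 (chr11:120484387-120484612, plus strand) had the most counts of all members, and the short stretch of Mrpl57 (chr14:57826186-57826233, plus strand) lies between its start and that of Ska3. Capitals mark matches, on either strand, to the NRF1 motif (the run capitalized in Mrpl12, with 1 middle base free) or to the letters of ETS (CCGGAAG), YY1 (AAGATGGCG), the E-box (CACGTG) or CCAAT, and the letters GGGCGG and TATAAA, searched below, are not marked.
Mrps27: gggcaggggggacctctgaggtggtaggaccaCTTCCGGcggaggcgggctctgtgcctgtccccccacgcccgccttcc
Mrps9: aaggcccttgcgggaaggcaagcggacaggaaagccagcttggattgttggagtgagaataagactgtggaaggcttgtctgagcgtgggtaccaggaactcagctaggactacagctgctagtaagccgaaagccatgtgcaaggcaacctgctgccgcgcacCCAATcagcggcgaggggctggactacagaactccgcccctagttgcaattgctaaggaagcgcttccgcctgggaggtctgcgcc
Mrpl43: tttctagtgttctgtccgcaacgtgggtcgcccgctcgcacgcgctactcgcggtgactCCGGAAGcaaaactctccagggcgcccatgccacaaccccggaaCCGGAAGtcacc
Mrps15: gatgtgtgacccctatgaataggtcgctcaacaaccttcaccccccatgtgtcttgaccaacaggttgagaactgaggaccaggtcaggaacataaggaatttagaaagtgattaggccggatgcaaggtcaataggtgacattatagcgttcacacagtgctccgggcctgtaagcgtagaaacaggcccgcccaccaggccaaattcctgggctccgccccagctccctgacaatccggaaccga
Mrpl12: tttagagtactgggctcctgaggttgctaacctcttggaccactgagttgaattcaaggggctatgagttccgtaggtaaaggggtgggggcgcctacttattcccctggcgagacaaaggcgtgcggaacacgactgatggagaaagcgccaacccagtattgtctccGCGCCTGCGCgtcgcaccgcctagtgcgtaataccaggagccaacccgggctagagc
Mrpl57: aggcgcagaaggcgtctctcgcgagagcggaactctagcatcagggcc

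The printed stretch of Mrps27 held 1 ETS match and that of Mrpl43 held 2, although the log2 ratios of these genes were -1.34 and 0.23. Mrpl12 had 1 NRF1 match, Mrps9 had 1 CCAAT match, and the printed bases of Mrps15 and Mrpl57 held none of these letters. The full windows, counted next, reach past these stretches, and there Mrps27 also held YY1 letters, Mrps9 the NRF1 motif, Mrpl57 the NRF1 motif and ETS letters, and Mrps15 CCAAT.

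RefSeq windows from 250 bases before to 50 bases after the start were found for 69 of the 78 members. The 9 members without a window include Mrps28, the lowest of all, and Mrpl19, Mrpl38 and Mrps35, all at -1 or less. The motif counts and medians below thus leave out part of the low end. ETS letters were in the windows of 26 members (37.7%), compared with 17.97% of the 12293 tested genes with a window. NRF1 letters were in 13 (18.8% against 10.2%) and YY1 letters in 8 (11.6% against 3.12%). At least one of these motifs was found in 41 members (59.4%), against 27.9% of the tested genes. The ETS letters end with AAG and the YY1 letters begin with it, so these matches can overlap. Among the other letters searched, CACGTG was found in 7.25% of the members and 11.2% of the tested genes, CCAAT in 39.1% and 42.8%, GGGCGG in 49.3% and 63.4%, and TATAAA in 7.25% and 10.02%.

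Members with and without these motifs overlapped in their ratios. Those with ETS letters had a median log2 ratio of -0.40 and those without one of -0.62, and both groups held genes at -1 or less and genes above 0. The medians with and without NRF1 letters were -0.55 and -0.56, and those with and without YY1 letters were -0.61 and -0.53. Above 0 were 6 of 26 members with ETS letters and 4 of 43 without, and 2 of 13 with NRF1 letters and 8 of 56 without. The 8 with YY1 letters ran from -1.34 to -0.51, so none was above 0, whereas 10 of the 61 without were. These are descriptions of letters in a window, and binding was not measured.

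Both subunits were lower in DSS-treated mIOs. The 26 small subunit genes had a median log2 ratio of -0.68, with 23 below 0. The 51 large subunit genes had a median of -0.55, with 44 below 0. At -1 or less were 6 of the 26, a share near the 20.2% of the tested genes, and 4 of the 51, a share below it. The sums of counts gave -0.56 and -0.50. The spread within each subunit, with interquartile ranges of 0.65 and 0.42, was wider than the difference between the medians, and the 2 subunits overlapped over most of their range.

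Descent from bacteria separated the members even less. The 45 genes with a bacterial counterpart had a median log2 ratio of -0.62, with 4 at -1 or less. The 29 mitochondria-specific genes had a median of -0.56, with 6 at -1 or less. Over all tested genes 20.2% were at -1 or less. The 3 Mrps18 genes were kept as a class of their own, with a median of -0.51. They and Mrps36 are in neither of these groups. Within the small subunit the order of the classes was the reverse of that in the large subunit, with -0.72 for 15 bacterial and -0.52 for 9 specific genes, against -0.53 for 30 and -0.58 for 20.

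Among the small subunit members, Mrps28 was the lowest. It encodes the relative of bacterial S1 (NCBI gene 66230) and lies on chromosome 3 from 8802146 to 8923918 on the minus strand of GRCm38. It had 1230 counts (17.2 CPM) in control mIOs and 308 counts (5.63 CPM) in DSS-treated mIOs, a log2 ratio of -1.61 (interval -1.79 to -1.43). The DSS level was thus 32.8% of the control level. Next in the order was Mrps30 of the large subunit, at -1.43 (interval -1.55 to -1.32), and the intervals of these genes overlap.

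Mrps27, a small subunit protein with pentatricopeptide repeats, had 3014 and 909 counts (42.1 and 16.6 CPM) and a log2 ratio of -1.34 (interval -1.45 to -1.23). Ptcd3, the other pentatricopeptide repeat protein of the small subunit, does not carry an Mrps symbol, and its ratio was close to that of Mrps27, at -1.42 (4457 and 1275 counts). Mrps9 and Mrps5, both with bacterial counterparts, had ratios of -1.26 (4321 and 1380 counts) and -1.08 (3134 and 1132 counts). Mrps22 and Mrps35, which are specific to mitochondria, had ratios of -1.19 (2108 and 707 counts) and -1.003 (3480 and 1326 counts). Mrps2 had 3319 and 1270 counts and fell just short of the line, at a ratio of -0.997. The intervals of Mrps35 and Mrps2 overlap, so the count of 10 members depends on a line that passes between genes that cannot be ordered.

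Small subunit genes were also found at the upper end. Mrps15, the counterpart of bacterial S15, had 2441 counts in control mIOs and 2456 in DSS-treated mIOs, which is 34.1 and 44.9 CPM and a log2 ratio of 0.40 (interval 0.32 to 0.48). Mrps23 (2544 and 2165 counts) and Mrps21 (2541 and 2144 counts) had ratios of 0.16 and 0.14. The raw counts of both were lower in DSS-treated mIOs, and their place above 0 rests on the scaling, with ratios of -0.10 and -0.11 on total counts. Mrps11, with 677 and 359 counts the least counted member in control mIOs, had a ratio of -0.53 and the widest interval, from -0.72 to -0.34.

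The 3 genes named Mrps18 encode related proteins of different subunits, since the product of Mrps18a sits in the large subunit. Mrps18a had 2313 and 1196 counts (log2 ratio -0.56), and Mrps18b had 3074 and 1654 counts (-0.51). Mrps18c, at 1378 and 1051 counts, had equal scaled levels of 19.3 and 19.2 CPM, and its interval of -0.12 to 0.11 does not overlap those of the other 2.

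In the large subunit, Mrps30 was the lowest member. Its product belongs to the large subunit despite its name, and the gene (NCBI gene 59054) lies on chromosome 13 from 118378381 to 118387252 on the minus strand. It had 2884 counts (40.3 CPM) in control mIOs and 816 counts (14.9 CPM) in DSS-treated mIOs, 37.0% of the control level. Mrpl19, a counterpart of bacterial L19, had 2833 and 869 counts and a ratio of -1.32 (interval -1.43 to -1.21). Mrpl38, a protein of the central protuberance, had 4220 and 1475 counts and a ratio of -1.13, and Mrpl44, which has an RNase III fold, had 1575 and 555 counts and a ratio of -1.12. The intervals of these last 2 overlap almost fully.

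Mrpl14 was the highest of all members. It encodes the counterpart of bacterial L14, a protein of the face that meets the small subunit (NCBI gene 68463), and lies on chromosome 17 from 45686322 to 45698495 on the plus strand. It had 1597 counts (22.3 CPM) in control mIOs and 1795 (32.8 CPM) in DSS-treated mIOs, a log2 ratio of 0.56 (interval 0.46 to 0.66), and it stayed above 0 on total counts, at 0.30. Mrpl14 and Mrps15 were the only members with more raw counts in DSS-treated mIOs, whose library was the shallower one. Mrpl27, whose bacterial counterpart reaches the peptidyl transferase center, had 1409 and 1270 counts and a ratio of 0.24, and Mrpl43, specific to mitochondria, had 2221 and 1991 counts and a ratio of 0.23. On total counts these ratios were -0.02 and -0.03.

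Mrpl55, Mrpl51 and Mrpl33 were close to 0, with ratios of 0.13 (1267 and 1058 counts), 0.10 (3616 and 2956 counts) and 0.04 (1719 and 1353 counts), and all 3 were below 0 on total counts. Mrpl58, a peptidyl-tRNA hydrolase built into the large subunit, had 1500 and 1129 counts and a ratio of -0.02 (interval -0.13 to 0.09).

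Mrpl12 had the most counts. It forms the stalk of the large subunit and is also known to bind the mitochondrial RNA polymerase, and the gene (NCBI gene 56282) lies on chromosome 11 from 120484613 to 120489065 on the plus strand. Its counts were 9121 in control mIOs and 4762 in DSS-treated mIOs (127 and 87.1 CPM), a log2 ratio of -0.55 (interval -0.60 to -0.50) that is close to the median member. The stalk proteins Mrpl10, Mrpl11 and Mrpl12 had a median of -0.55. Mrpl45, which anchors the ribosome to the inner membrane, had 4514 and 2713 counts and a ratio of -0.35. Mrpl18, a protein of the central protuberance, had 2950 and 1826 counts and a ratio of -0.30.

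Mrps36, the member outside the ribosome, had 2472 counts (34.5 CPM) in control mIOs and 2371 (43.4 CPM) in DSS-treated mIOs, and with a ratio of 0.33 it came next below Mrpl14 and Mrps15. Without it, the 77 ribosomal members kept a median of -0.56 and 10 genes at -1 or less. Its pseudogenes Mrps36-ps1 (185 and 214 counts) and Mrps36-ps2 (71 and 90 counts) share sequence with it, so reads can be split among them, and the 3 genes added together gave 0.36. Adding the listed pseudogenes of Mrpl48 and Mrpl23 left Mrpl48 at -0.28 and moved Mrpl23 from -0.62 to -0.61.

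**Figure D2:**
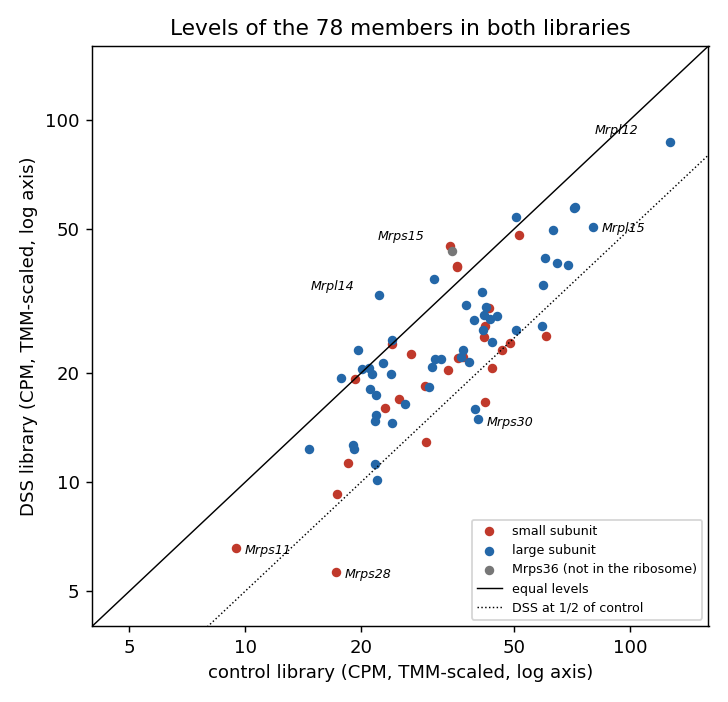
TMM-scaled CPM of the 78 members in control mIOs (horizontal) and DSS-treated mIOs (vertical), both on log axes, 1 point per gene and 1 library per condition; the solid line marks equal levels and the dotted line marks DSS levels at 1/2 of control. Most points lie between the lines, Mrps28 and Mrps30 lie below the dotted line, and Mrpl14 and Mrps15 lie above the solid line.

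Levels between genes were compared per kilobase of transcript, with the median length of the protein-coding transcripts of each gene in GENCODE vM21. On this scale (RPKM, CPM divided by the length in kilobases) the median member was at 30.8 in control mIOs and 22.7 in DSS-treated mIOs. The highest levels in control mIOs were those of Mrpl30 (109, and 86.7 with DSS), Mrpl52 (105 and 58.4) and Mrpl42 (105 and 60.0), all of the large subunit. The lowest were those of Mrps26 (5.39 and 3.75), Mrps25 (6.07 and 3.65) and Mrpl47 (6.47 and 3.34). The highest level was 20.2 times the lowest in control mIOs and 30.5 times in DSS-treated mIOs. The annotated transcripts of the lowest 3 are long, so these levels depend on which transcripts the organoids use, which was not measured.

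The order of levels was largely shared by the 2 libraries, with a Spearman correlation of 0.91 across the 78 members. The log2 ratio and the control CPM had one of -0.26. Both are across genes of the same pair of libraries, and genes are not independent replicates.

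Members with longer coding sequences tended to have lower ratios. The Spearman correlation of the log2 ratio with the length of the longest annotated coding sequence was -0.42 across the 78 members, -0.37 within the small and -0.49 within the large subunit. In the 26 members under 498 nucleotides the median log2 ratio was -0.18, with none at -1 or less and 9 above 0. The 26 members from 498 up to 756 nucleotides had a median of -0.55. The 26 longer ones had a median of -0.70, with 1 above 0. Of these longer members 9 were at -1 or less, beside 20.2% of all tested genes. So 9 of the 10 lowest members had long coding sequences, and Mrps28, at 558 nucleotides, was the exception.

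Over 13431 tested protein-coding genes with a length (98.5% of those tested), the correlation was 0.00011, and the medians in the same length ranges were -0.03, -0.02 and -0.06. It was -0.47 over 78 nuclear genes of oxidative phosphorylation and -0.14 over 80 cytosolic ribosomal protein genes. With the trend over transcript length in all genes removed, 11 of the 78 members were at -1 or less, a smaller share than the 19.7% of the genes in that fit.

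**Figure D3:**
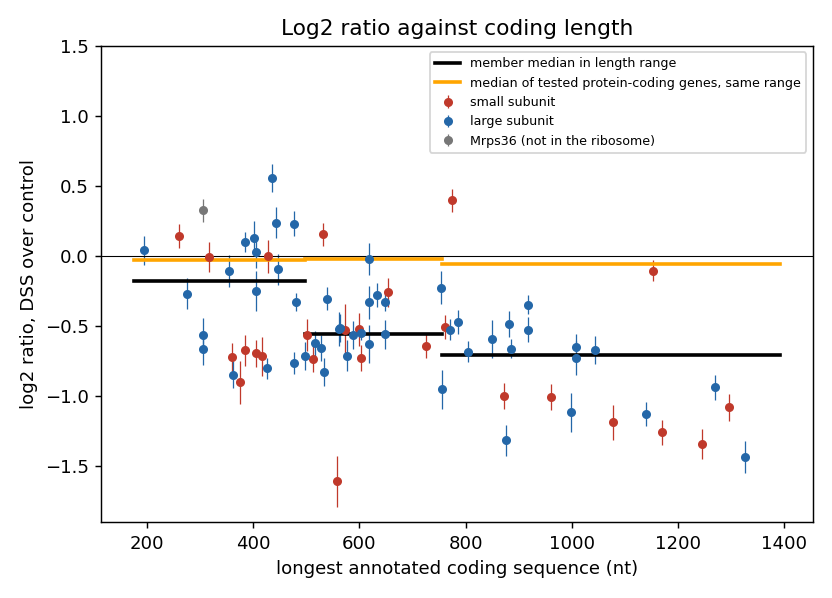
Log2 ratio of DSS over control (vertical) against the longest annotated coding sequence in nucleotides (horizontal) for the 78 members, with exact 95% intervals for counting error; black bars are member medians in 3 length ranges and orange bars the medians of tested protein-coding genes in the same ranges. Member medians go from -0.18 to -0.55 and -0.70 with length, whereas the other medians stay between -0.06 and -0.02.

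The members were placed on 17 chromosomes in GENCODE vM21, with 11 on chromosome 11 and 8 on chromosome 17. Partners were protein-coding genes that start on the opposite strand, head to head, up to 1000 bp upstream of the member's start. Pairs that overlap at their starts, such as Mrps11 and Mrpl46, were not counted. A partner was found for 18 members (23.1%), compared with 9.81% of 13399 tested genes that were located. The partners of members had a median log2 ratio of -0.37 and ranged from -3.92 to 1.42. Of these partners, 3 were at -1 or less and 2 at 1 or more, beside 20.2% and 19.3% of the tested genes.

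A member and its partner often had different ratios. Mrpl57, whose promoter stretch is printed above, had 1557 and 805 counts and a ratio of -0.56, whereas Ska3, a spindle protein gene that starts 49 bp away, had 1367 and 69 counts and a ratio of -3.92. Mrpl51 stood at 0.10, while the condensin gene Ncapd2, 100 bp away, had 11084 and 641 counts and a ratio of -3.72. In the opposite direction, Mrps18b was at -0.51 and Ppp1r10, 45 bp away, had 6552 and 13365 counts and a ratio of 1.42. Across the 18 pairs the Spearman correlation was 0.011. Members with and without a partner, as counted here, had medians of -0.51 and -0.61.

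**Figure D4:**
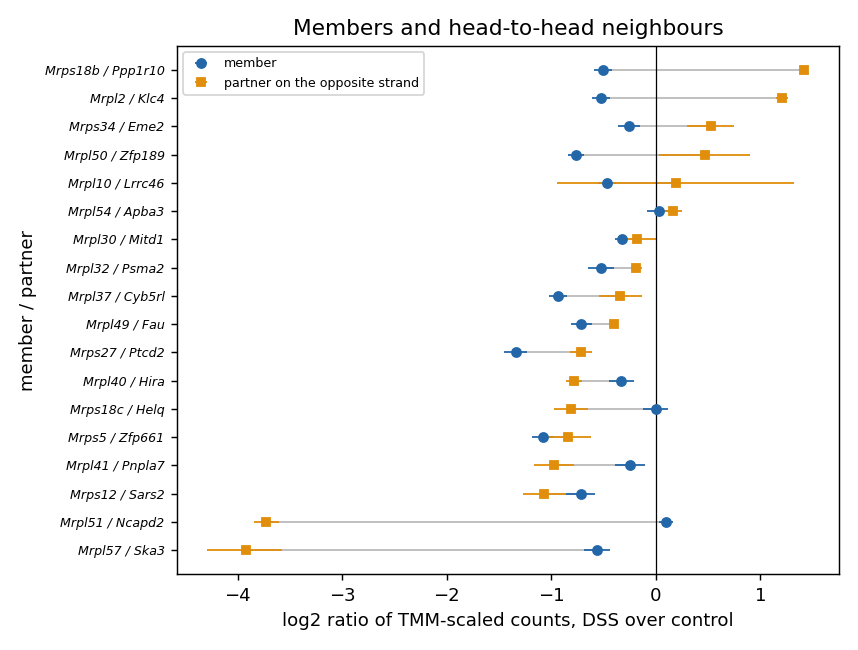
Log2 ratio of DSS over control for 18 members (circles) and their head-to-head neighbors on the opposite strand (squares), with exact 95% intervals for counting error and 1 library per condition. The members span a narrower range than their partners, which run from Ska3 at -3.92 to Ppp1r10 at 1.42.

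Some members overlap other genes. Mrps11 and Mrpl46 overlap head to head on chromosome 7, from 78783119 to 78783531, with log2 ratios of -0.53 and -0.59. Exon bases were shared with a gene on the opposite strand by 28 members and with a gene on the same strand by 6, among them Mrps6 with Slc5a3. At the low end of the order, Mrps30, Mrps27, Mrpl19 and Mrpl44 shared bases with the opposite strand, and Mrps28 did not. At the high end Mrpl14, Mrpl27 and Mrpl43 did, and Mrps15 did not. The kit marks strand, but the counting settings are not given in the sources used here, so reads in shared bases cannot be assigned with certainty. The 46 members with neither had a median of -0.59.

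The other proteins of the mitochondrial ribosome, which the symbol rule does not take, were also lower in DSS-treated mIOs. Dap3, a GTP-binding protein of the small subunit, had 6332 and 3242 counts and a ratio of -0.58, and Chchd1 had 2173 and 967 counts and a ratio of -0.78. Gadd45gip1, of the large subunit, was at -1.02 (2286 and 863 counts), and Aurkaip1, of the small subunit, was at -0.19 (2725 and 1826 counts). With Ptcd3, these 5 genes had a median of -0.78, below the -0.56 of the members. Together with the 77 ribosomal members they make 82 proteins, with a median of -0.57. Of the 82, 12 were at -1 or less, beside 20.2% of the tested genes.

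The genes that build and serve the mitochondrial ribosome were lower too, and the median of each list lay below the -0.56 of the members. The 26 assembly factors had a median log2 ratio of -0.75, with 4 at -1 or less. The lowest were Mrm3, a methyltransferase for the large ribosomal RNA, at -2.47 (574 and 79 counts), and Noa1, a GTPase of small subunit assembly, at -2.15 (1999 and 345 counts). Both were lower than every member. At the other end, Nsun4, which methylates the small ribosomal RNA, was at 0.78, and the pseudouridine synthase gene Trub2 at 0.43.

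The list of 16 translation factors was a wide one that also took in Lrpprc, Slirp and Oxa1l. It had a median of -0.69, with 3 at -1 or less, among them Lrpprc at -1.37 (11315 and 3333 counts). Tsfm, an elongation factor, was at -2.07 (1432 and 260 counts) and the release factor Mtrf1 at -1.64, whereas Taco1, an activator of Cox1 translation, was at -0.04 and Mtfmt, which formylates the initiator tRNA, at 0.17. All 17 mitochondrial aminoacyl-tRNA synthetases were below 0, with a median of -0.79 and 7 at -1 or less, from Yars2 at -1.42 and Pars2 at -1.14 to Hars2 at -0.20 and Cars2 at -0.19. Of the 11 genes for mitochondrial DNA upkeep and transcription, with a median of -0.98, 4 were at -1 or less. The lowest were the exonuclease gene Mgme1 at -2.04 and Top1mt at -1.47, and the highest were the polymerase subunits Polg at -0.43 and Polg2 at 0.46. Each of these 4 lists, like the members, had no gene at 1 or more. Of the tested genes, 20.2% were at -1 or less and 19.3% at 1 or more.

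The members differed in direction from the RNAs that the mitochondrial ribosome translates. All 13 mitochondrially encoded genes were above 0, with a median of 0.86, whereas 52.0% of the tested genes were below 0. The 13 ran from COX3 at 0.27 and ND3 at 0.36 to ND4L at 1.09 and ND4 at 1.21. Their share of all counts was 6.69% in control mIOs and 10.4% in DSS-treated mIOs. The libraries were made from poly(A) RNA, and the part of that selection in these counts was not tested. The 78 nuclear subunits of oxidative phosphorylation, most of which assemble with the mitochondrially encoded proteins, had a median of 0.10. Of these 78, 47 were above 0 and 31 (39.7%) below, and on total counts the median was -0.16. They ran from Atp5g2 at -0.98 and Ndufa4 at -0.59 to Ndufb3 at 0.61 and Cox7a1 at 1.66.

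The members were less low than the ribosomal proteins of the cytosol. All 86 cytosolic ribosomal protein genes were below 0, with a median of -1.43, and 81 were at -1 or less, beside 20.2% of the tested genes. They ran from Rpl12 at -2.17 and Rpl3 at -1.88 to Rps4l at -0.59 and Rps27l at -0.24. Their share of all counts was 9.86% in control mIOs and 2.98% in DSS-treated mIOs. The lowest member, Mrps28, was thus at the first quartile of the cytosolic genes, which was also -1.61. Many cytosolic ribosomal protein genes have pseudogenes that can take or add reads.

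Among 9 nuclear regulators of mitochondrial genes, the median was -0.17 and the members of the list diverged. Pprc1, a coactivator related to PGC-1alpha, had 5041 and 846 counts and a ratio of -2.19, and Myc had 5101 and 994 counts and a ratio of -1.97. Ppargc1a, which encodes PGC-1alpha, had 1520 and 2263 counts and a ratio of 0.96, and Esrra, its nuclear receptor partner, had 6350 and 7705 counts and a ratio of 0.67.

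**Figure D5:**
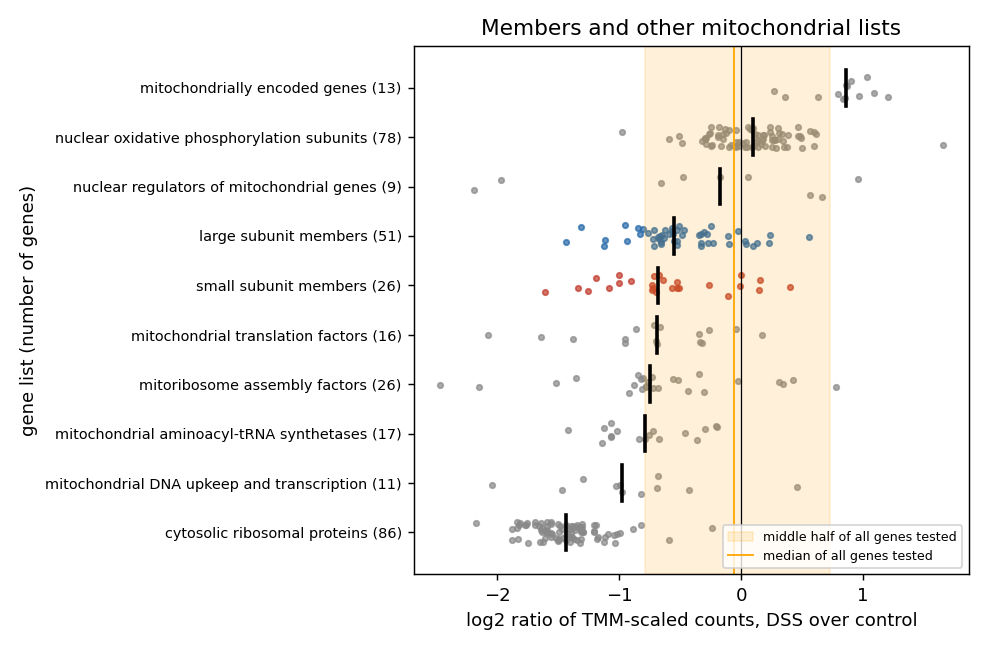
Log2 ratio of DSS over control for each gene (points) of the small and large subunit members and of 8 other lists, with the list median as a black bar, the number of genes in parentheses and 1 library per condition; the shaded band is the interquartile range of all tested genes and the orange line their median. The lists go from cytosolic ribosomal proteins (median -1.43) over the members (-0.68 and -0.55) to mitochondrially encoded genes (0.86).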

How the data were processed

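Per gene, the authors deposited raw counts of reads for both libraries, made from stranded poly(A) TruSeq libraries. The submitters' processing notes name HISAT2 and StringTie, and their versions, the counting settings and the genome build are not given in the sources used here. The separate file of each sample bears the name FPKM, yet its values are these same counts for all 19294 genes, so no FPKM values were used. Every listed gene has counts in both libraries, so genes at 0 are missing from all results.

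TMM factors (1.09 for the control, 0.915 for DSS) came from edgeR 4.0.16 under R 4.3.3, and no count model was fitted. Ratios and exact 95% intervals were computed with Python 3.11.15, scipy 1.17.1, numpy 2.4.6 and pandas 2.3.3, and were tested on simulated data. Plots used matplotlib 3.10.9. Lengths and places came from GENCODE vM21 (GRCm38), matched for 78 of 78 members, and promoters from RefSeq (GRCm38.p6). For genes with more than 1 window, a match in any window counted.

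The members, gene lists and settings were chosen with earlier results of these data known. Named genes are the 10 lowest and 10 highest members with at least 100 counts, 10 members of known roles, the 3 highest and 3 lowest members per kilobase, the other ribosomal proteins, and 2 genes at each end of the other pathway lists among those with at least 50 counts. Mrps2, Mrps11, the head-to-head pairs and the members whose promoters are shown, other than Mrpl12, were chosen after the values were seen. Alternatives were scaling by total counts, by DESeq2 1.42.0 size factors or by upper quartiles, thinning the deeper library, a prior count of 2, other count minimums and the mean of the members. Centering on the median of all genes, total counts without mitochondrially encoded genes, and removal of the trend with transcript length were added after seeing the data.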

Additional observations from a re-analysis of the deposited data

How the results depend on the processing

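No paired analysis was possible because there was 1 library per condition, and no replicate could be left out for the same reason. Under DESeq2 size factors, upper quartile factors, thinning to the shallower depth, other count minimums, a prior count of 2 and centering on the median of all genes, the count of members at a log2 ratio of -1 or less stayed between 8 and 10, and none was at 1 or more.

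Total counts moved most values. The count at -1 or less was 18 of 78 members, beside 26.2% of all tested genes on that scale, and the medians were -0.82 for the members, -0.94 and -0.81 for the small and large subunit, and -0.88 and -0.82 for members with a bacterial counterpart and mitochondria-specific members, with -0.76 for the summed counts. The other medians were -1.04 for the further mitoribosome proteins, -1.003 for assembly factors, -0.95 for translation factors, -1.04 for synthetases, -1.23 for mitochondrial DNA upkeep and transcription, -0.43 for regulators, 0.61 for mitochondrially encoded genes and -1.69 for cytosolic ribosomal proteins. The nuclear oxidative phosphorylation subunits changed sign, to -0.16. On total counts without the mitochondrially encoded genes, an alternative chosen after seeing the data, the count was 16 of 78 members, beside 24.7% of all tested genes, and the medians, in the order given above, were -0.76, -0.88, -0.75, -0.82 and -0.76. By construction, a change of scale shifts all genes by 1 amount. Depth limits the members little, since the widest interval reached 0.188 to either side, but it says nothing of the spread between cultures.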
